A study of Mus musculus with 24 samples.

Results

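The genes examined were the 7 mouse inhibitors of cyclin-dependent kinases (CDKs) of the Cip/Kip and Ink4 families, found by gene symbol among the 25755 genes measured. Cdkn1a, Cdkn1b and Cdkn1c are the 3 Cip/Kip members, and Cdkn2a, Cdkn2b, Cdkn2c and Cdkn2d the 4 Ink4 members. The study removed the histone deacetylases Hdac1 and Hdac2 from the dermal papilla (DP), the mesenchymal signaling center of the hair follicle. YFP-positive DP cells were sorted from back skin of single mice at P20 (first telogen, the resting phase), P24 (early anagen, the growth phase), P28 (mid anagen) and P60 (second telogen). RNA of 3 control and 3 double mutant (dM1/2) mice was sequenced at each of these 4 ages, which gave 24 libraries.

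The dM1/2 mice carried Cor-cre/+ with Hdac1 Flox/Flox and Hdac2 Flox/Flox. All controls carried the same Cre with fewer floxed alleles, in 1 of 5 combinations: Hdac1 Flox/+ with Hdac2 Flox/+, Hdac1 Flox/+ with Hdac2 +/+, Hdac1 +/+ with Hdac2 Flox/+, Hdac1 Flox/+ with Hdac2 Flox/Flox, or Hdac1 Flox/Flox with Hdac2 Flox/+. Which of these a given control library had is not in its label. Corin-Cre is active in the DP after birth. By the study's methods the P20 mice were female, the anagen mice male and the mice of second telogen of both sexes, and no label gives the sex of a library. Sex, age and hair cycle stage cannot be told apart in comparisons between stages, and sex may differ among the P60 libraries.

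Levels are given as normalized reads, the reads of a gene after scaling each library by its size factor. Genes received 11635062 to 13369732 reads per library at P20 and 8171944 to 9724000 at P60. In anagen the range was 35469841 to 49331751 at P24 and 37171260 to 48331795 at P28, so low genes were measured more precisely in anagen than in telogen. The 10 DP markers examined had reads in all 24 libraries.

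CDK inhibitors slow the passage from G1 into S phase. Ink4 proteins bind Cdk4 and Cdk6 and keep D cyclins from them, whereas Cip/Kip proteins bind whole complexes of cyclin and CDK, mainly those of Cdk2. Active complexes phosphorylate pocket proteins such as Rb1, which then release E2F transcription factors, and DP cells are known to divide rarely.

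The targeted genes were read first. Hdac1 was at 375, 511 and 505 normalized reads in P20 controls and at 216, 369.6 and 270 in P20 dM1/2. At P24 the controls held 675, 668 and 669 and the dM1/2 libraries 209, 188 and 116, far apart. At P28 the controls held 214, 529 and 105 and the dM1/2 libraries 190.2, 149 and 126. The library labelled P28 control 3 was thus below every P28 dM1/2 library in Hdac1. A control may carry Hdac1 Flox/Flox with Hdac2 Flox/+, so its label allows this. The library also had the highest sum of 10 DP markers among P28 controls, 386990.3 normalized reads against 237059 and 133361. Its sum of 6 markers of other dermal fibroblasts was the lowest, 21296 against 50684 and 70902. The part of genotype or of cell make-up in its Hdac1 was not tested. Of the 5783 genes beside the members that limma called between genotypes at P28 without this library, it lay nearer the mean of the other 2 controls in 4423 (76.5%) and nearer dM1/2 in the others. In the same count, made after the values were seen, the other 5 P28 libraries lay nearer their own label in 81.7% to 98.6%. The library was thus with the controls in most such genes, though less often than any other P28 library was with its own label, and which control genotype it had cannot be told. Among called genes of the lists used below, it lay nearer the controls in 7 of 7 cyclins and kinases and 12 of 13 p53 targets. For cell type markers this was so in 3 of 5 of the DP, 2 of 4 of muscle and dermal sheath and 2 of 6 of other dermal fibroblasts. P28 tests between genotypes, and tests of members between ages that use this library, are given with and without it. At P60 the controls held 506, 359.9 and 376 and the dM1/2 libraries 371, 347 and 318, which overlap. Hdac1 was lower in 3 of 3 dM1/2 libraries at P24 (log2 fold change -2.01 ± 0.22, SE, limma adjusted p = 0.00167). It was not called at P20, P28 or P60 (limma adjusted p = 0.122, 0.454 and 0.986), and at P28 it was called without the library labelled P28 control 3 (-1.13 ± 0.37, limma adjusted p = 0.0426). Hdac2 was not called at any age, with 925, 1048 and 1069 normalized reads in P24 controls and 1157, 1223 and 1282 in P24 dM1/2 (limma adjusted p = 0.117), and at P28 it was not called without the library labelled P28 control 3 either (limma adjusted p = 0.263). Counts per gene also hold reads of exons outside the deleted part and do not measure the deletion itself.

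**Figure D1:**
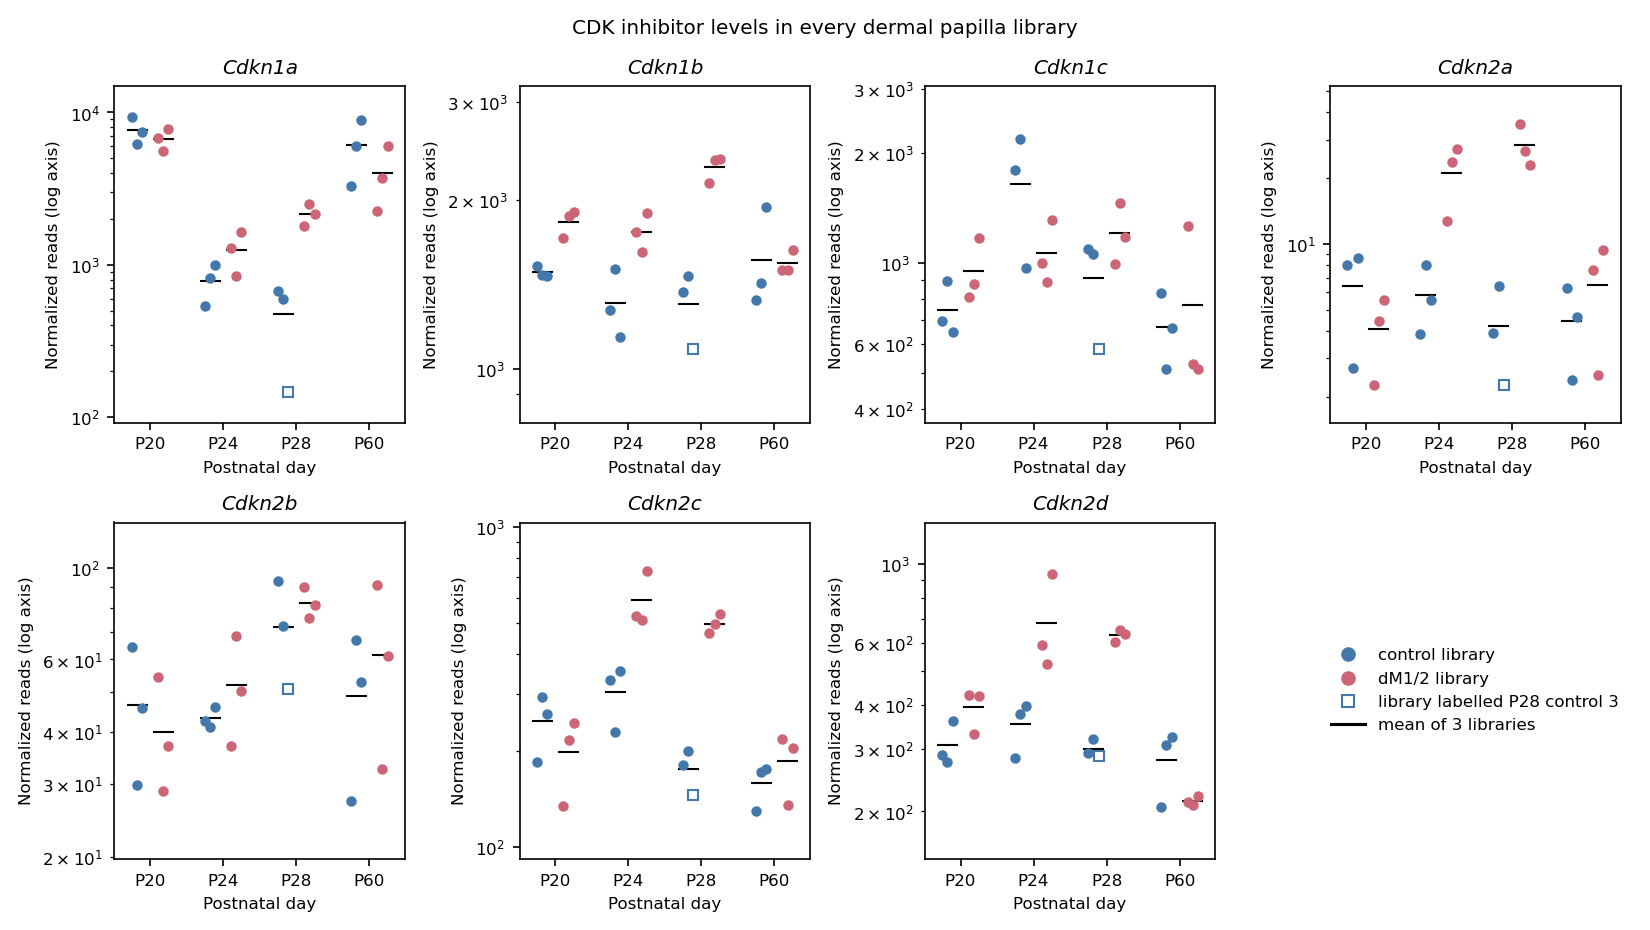
Normalized reads (log axis) of the 7 CDK inhibitors by postnatal day, with a point for each library, a line at the mean of 3 libraries and the library labelled P28 control 3 as an open square. At P28 the dM1/2 points of Cdkn1a, Cdkn1b, Cdkn2a, Cdkn2c and Cdkn2d all lie above the control points.

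Levels of different members were compared per kb of the union of their exons. In P20 controls Cdkn1a was the highest, at 2161 ± 437 normalized reads per kb (SD, n = 3). Cdkn1c at 366 ± 63.5 and Cdkn1b at 327 ± 7.6 came next and did not differ beyond their spread. Of the Ink4 members Cdkn2d was at 196 ± 29.2, Cdkn2c at 91.9 ± 21, Cdkn2b at 33.6 ± 12.4 and Cdkn2a at 5.5 ± 2.78 normalized reads per kb. This order within the Ink4 family held for the means of all 8 groups.

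The plot of levels per length shows that the make-up of the family differed between stages, mostly through Cdkn1a. Cdkn1a made up 67.5% ± 5.3 of the summed level per kb in P20 controls and 62.3% ± 10.3 in P60 controls (SD, n = 3). Its share was 13.4% ± 5.51 in P24 controls, 10.5% ± 4.87 in P28 controls and 25.5% ± 1.54 in P28 dM1/2. In anagen controls Cdkn1c held the largest mean share, 46.8% ± 11.7 at P24 and 37.5% ± 3.06 at P28. The summed level in P28 dM1/2 cells, at 2373 ± 252 normalized reads per kb, stood above that in P28 controls, at 1178 ± 293. The P28 controls without the library labelled P28 control 3 had a summed level of 1347 ± 3.75, of which Cdkn1a made up 13.3% ± 1.08 and Cdkn1c 39.2% ± 0.82 (SD, n = 2).

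**Figure D2:**
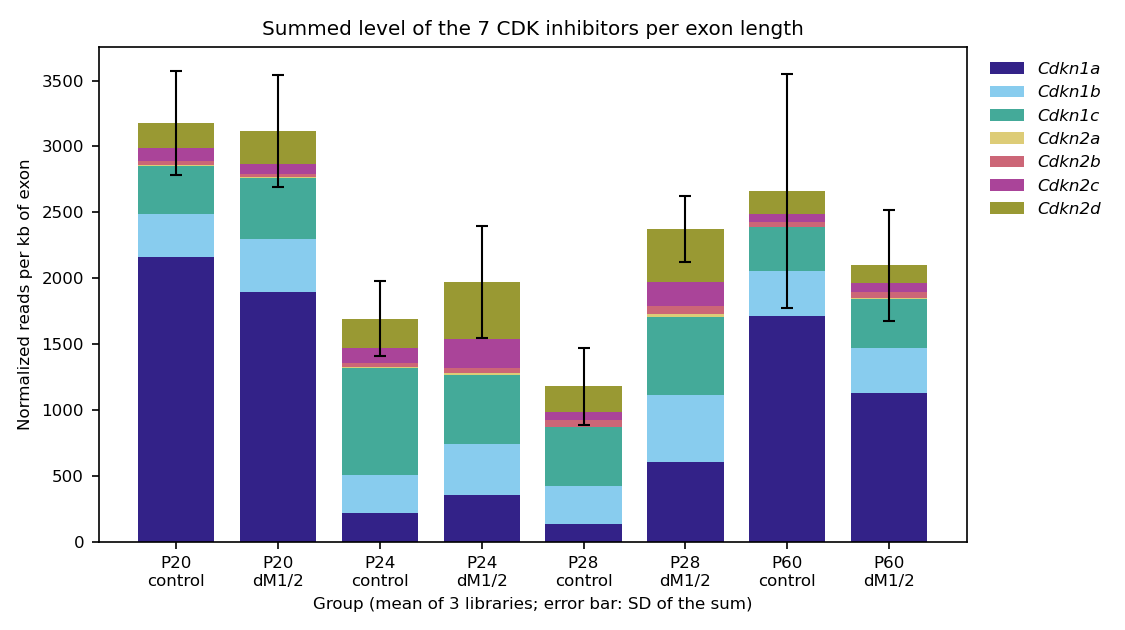
Mean normalized reads per kb of exon of the 7 members, stacked for each group of 3 libraries, with the SD of the sum as error bar. Cdkn1a takes most of the telogen bars and a small part of the anagen control bars.

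Cdkn1a (ENSMUSG00000023067, chromosome 17, 29090976 to 29100727, plus strand of GRCm38) encodes p21, the Cip/Kip inhibitor that p53 induces. In controls it was at 9329, 6249 and 7454 normalized reads at P20 and at 3289, 6008 and 8973 at P60. In P24 controls it was at 538, 815 and 1000 and in P28 controls at 673, 598 and 148. Every anagen control library was below every telogen control library. By the fitted means of log2 values, Cdkn1a was 12-fold lower in anagen than in telogen controls (log2 fold change -3.58 ± 0.37, SE, lower in 6 of 6 libraries, limma adjusted p = 4.74e-05), in a comparison chosen after the values were seen. The log2 fold change was -3.23 (limma adjusted p = 5.14e-06) when the library labelled P28 control 3 was left out. Between these stages 2 of the 6 members tested were called in controls, against 45.6% of all genes tested, so the count itself does not set the members apart. Depth differed between the stages too, and its part in the result was not tested. Bulk RNA does not tell apart fewer cells with a transcript and less RNA per cell.

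Markers of cell types moved with the stage as well. The 10 DP markers came to 34888, 29718 and 33577 normalized reads in P20 controls and 17246, 23118 and 26159 in P60 controls, against 286447, 293205 and 367015 at P24 and 237059, 133361 and 386990.3 at P28. Of these 10, 9 were called higher in anagen controls and 0 lower, against 23.8% and 21.9% of all genes, and Vcan or Trps1 was the most abundant in each control library. The 6 markers of other dermal fibroblasts came to 61088, 93784 and 77861 in P20 controls and 88961, 78735 and 78076 in P60 controls, against 40608, 24506 and 20254 at P24 and 50684, 70902 and 21296 at P28, and 4 of them were called lower in anagen controls. In the other lists 1 keratinocyte marker was called higher and 1 lower, and 2 melanocyte, 1 endothelial and 2 muscle and dermal sheath markers were called lower. In dM1/2 10 of the 10 DP markers were called higher in anagen, and of the 6 fibroblast markers 1 was called higher and 5 lower, against 32.7% and 29.4% of all genes. There 4 endothelial, 4 muscle and dermal sheath and 2 melanocyte markers were called lower, and of the keratinocyte markers 1 was called higher and 1 lower. No immune cell marker was called between stages by limma in either genotype. The part of these cells in the stage change of the members was not tested.

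In dM1/2 cells Cdkn1a was at 6792, 5593 and 7781 normalized reads at P20 and at 2259.5, 3691 and 6065 at P60. At P24 it was at 1291, 849 and 1632 and at P28 at 1796, 2509 and 2162. The genotypes overlapped at P20, P24 and P60, while at P28 the lowest dM1/2 library was above the highest control. At P28 Cdkn1a was 5.46-fold higher in dM1/2 (log2 fold change 2.45 ± 0.55, SE, higher in 3 of 3 libraries, limma adjusted p = 0.0143). Without the library labelled P28 control 3 it was 3.36-fold higher (1.75 ± 0.17, limma adjusted p = 2.88e-04). Leaving out P28 dM1/2 replicate 2 ended the call (limma adjusted p = 0.0602, the highest of 6 such fits, whose lowest was 2.88e-04). At P24 the difference was not called (0.68 ± 0.29, limma adjusted p = 0.13).

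Between the stages Cdkn1a also fell in dM1/2 cells, with a log2 fold change of -1.62 ± 0.22 from telogen to anagen (SE, 12 libraries, limma adjusted p = 5.32e-05, chosen after the values were seen). In that comparison 4 of the 6 members that passed the filter on low values in every group were called, against 62.1% of all genes, and Cdkn1b, Cdkn2c and Cdkn2d were the 3 that rose. Cdkn2a, which passed only through the anagen libraries, was higher there by 2.10 ± 0.38 (limma adjusted p = 4.28e-04, and 6.87e-04 with no filter). That value rests on telogen dM1/2 libraries of 1 to 4 reads. From high to low, the mean levels of Cdkn1a were 7677 ± 1552 in P20 control, 6722 ± 1096 in P20 dM1/2, 6090.2 ± 2843 in P60 control, 4005 ± 1922 in P60 dM1/2, 2156 ± 357 in P28 dM1/2, 1257 ± 393 in P24 dM1/2, 784 ± 233 in P24 control and 473 ± 284 in P28 control (normalized reads, SD, n = 3). Among neighbours in this order, libraries overlapped everywhere but between P28 dM1/2 and P24 dM1/2.

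Cdkn1b (ENSMUSG00000003031, chromosome 6, 134920401 to 134925513, plus strand) encodes p27, a Cip/Kip inhibitor tied to exit from the cell cycle. At P28 the controls held 1369, 1467 and 1084 normalized reads and the dM1/2 libraries 2151, 2357 and 2366. At P24 the controls held 1276, 1510.2 and 1139 and the dM1/2 libraries 1753, 1618 and 1901. The genotypes did not overlap at either anagen age. Cdkn1b rose by 0.82 ± 0.14 on the log2 scale at P28 (SE, higher in 3 of 3, limma adjusted p = 0.00568), and by 0.69 ± 0.13 without the library labelled P28 control 3 (limma adjusted p = 0.0045). At P24 the difference of 0.43 ± 0.14 missed the threshold (higher in 3 of 3, limma adjusted p = 0.0541, and 0.0531 to 0.137 with a library left out). It passed with DESeq2 (adjusted p = 0.0487) and in a single limma fit over 24 libraries (adjusted p = 0.0255).

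From high to low, Cdkn1b was at 2292 ± 122 in P28 dM1/2, 1829 ± 104 in P20 dM1/2, 1757 ± 141 in P24 dM1/2, 1564 ± 334 in P60 control, 1546 ± 73.9 in P60 dM1/2, 1487 ± 34.6 in P20 control, 1308 ± 188 in P24 control and 1307 ± 199 in P28 control (mean normalized reads, SD, n = 3). Only the step between P28 dM1/2 and P20 dM1/2 in this order was free of overlap. At P20 all dM1/2 libraries were above all controls as well, with a log2 fold change of 0.30 ± 0.10 that was not called (limma adjusted p = 0.165). The summed DP markers were also higher in all dM1/2 libraries at P20, and their part in this difference was not tested.

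Cdkn1c (ENSMUSG00000037664, chromosome 7, 143458339 to 143461050, minus strand) encodes p57, a Cip/Kip inhibitor from an imprinted locus. At P24 the controls were at 1796, 2187 and 973 normalized reads and the dM1/2 libraries at 1002, 890 and 1311. At P28 the controls were at 1095, 1059 and 582 and the dM1/2 libraries at 993, 1465 and 1178. The genotypes overlapped at every age, and no difference was called at P24 (-0.57 ± 0.30, limma adjusted p = 0.199) or P28 (0.45 ± 0.27, limma adjusted p = 0.249; log2 scale, SE). The P28 value was 0.15 ± 0.18 without the library labelled P28 control 3 (limma adjusted p = 0.527). Without P24 control replicate 3 it was called lower at P24 (-0.91, limma adjusted p = 0.0115), the lowest of 6 such fits, the highest of which gave 0.492.

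In controls Cdkn1c rose from telogen to anagen by 0.75 ± 0.23 on the log2 scale (SE, 12 libraries, limma adjusted p = 0.0192, chosen after the values were seen), and by 0.90 without the library labelled P28 control 3 (limma adjusted p = 0.00522). Its mean levels from high to low were 1652 ± 619 in P24 control, 1212 ± 238 in P28 dM1/2, 1068 ± 218 in P24 dM1/2, 954 ± 193 in P20 dM1/2, 912 ± 286 in P28 control, 769.5 ± 429 in P60 dM1/2, 746 ± 129.6 in P20 control and 668 ± 157 in P60 control (normalized reads, SD, n = 3), and all neighbours in this order overlapped.

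**Figure D3:**
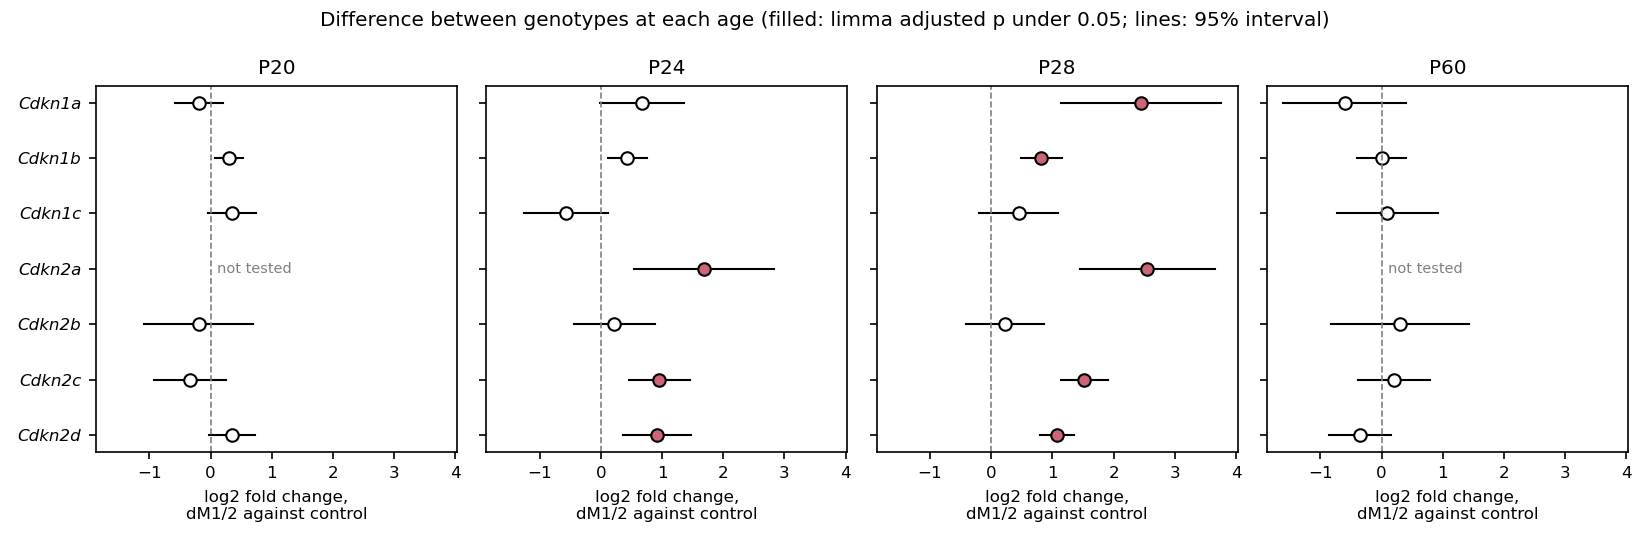
log2 fold change of each member between dM1/2 and control at each age, with the 95% interval from limma as a line and called members filled. Calls appear at P24 for Cdkn2a, Cdkn2c and Cdkn2d, and at P28 for these together with Cdkn1a and Cdkn1b, of which Cdkn2a passed the filter only through the dM1/2 libraries.

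Cdkn2c (ENSMUSG00000028551, chromosome 4, 109660876 to 109667189, minus strand) encodes p18, an Ink4 inhibitor. At P24 it was at 333, 228 and 355 normalized reads in controls and at 527, 513 and 728 in dM1/2. At P28 it was at 180.1, 199 and 145 in controls and at 467, 498 and 533 in dM1/2. The genotypes were apart at both anagen ages and overlapped in telogen, as the plot of normalized reads by age shows. Cdkn2c rose by 0.95 ± 0.22 at P24 (limma adjusted p = 0.0166) and by 1.52 ± 0.16 at P28 (limma adjusted p = 9.34e-04; log2 scale, SE, higher in 3 of 3 libraries each). At P28 it rose by 1.39 ± 0.15 without the library labelled P28 control 3 (limma adjusted p = 5.14e-04). Leaving out P24 dM1/2 replicate 3 ended the P24 call (limma adjusted p = 0.0566, the highest of 6 such fits, whose lowest was 0.0117). Its mean levels in falling order were 589.6 ± 121 in P24 dM1/2, 499 ± 33.3 in P28 dM1/2, 306 ± 67.7 in P24 control, 247 ± 56.4 in P20 control, 198 ± 57.3 in P20 dM1/2, 186 ± 43.8 in P60 dM1/2, 175 ± 27.4 in P28 control and 159 ± 25.1 in P60 control (normalized reads, SD, n = 3), and only P28 dM1/2 and P24 control were neighbours without overlap.

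Cdkn2d (ENSMUSG00000096472, chromosome 9, 21288410 to 21291407, minus strand) encodes p19Ink4d, an Ink4 inhibitor. At P24 it was at 284, 378 and 397 normalized reads in controls and at 592, 522 and 935 in dM1/2. At P28 it was at 292, 319.6 and 287 in controls and at 602, 651 and 635 in dM1/2, with a gap between the genotypes far wider than the spread within them. Cdkn2d rose by 0.92 ± 0.24 at P24 (limma adjusted p = 0.0276) and by 1.07 ± 0.12 at P28 (limma adjusted p = 0.00103; log2 scale, SE, higher in 3 of 3 libraries each). At P28 it rose by 1.04 ± 0.14 without the library labelled P28 control 3 (limma adjusted p = 0.00112). The P24 call was lost without control replicate 1 (limma adjusted p = 0.0729) or 2 (0.0639) and without dM1/2 replicate 1 (0.0575) or 3 (0.0584). Mean levels of Cdkn2d from high to low were 683 ± 221 in P24 dM1/2, 629 ± 25.3 in P28 dM1/2, 394 ± 54 in P20 dM1/2, 353 ± 60.6 in P24 control, 309 ± 46 in P20 control, 299.5 ± 17.6 in P28 control, 279 ± 64.4 in P60 control and 214 ± 6.48 in P60 dM1/2 (normalized reads, SD, n = 3). In that order only P28 dM1/2 and P20 dM1/2 were neighbours without overlap.

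Cdkn2a (ENSMUSG00000044303, chromosome 4, 89274471 to 89294653, minus strand) encodes both Ink4a and Arf, which have first exons of their own and share later ones, so a count per gene does not separate them. It was close to undetected in controls, with 10, 16 and 14 reads at P24 and 9, 10 and 6 reads at P28. The dM1/2 libraries held 35, 62 and 80 reads at P24 and 83, 62 and 57 at P28. After scaling, the P28 controls were at 3.92, 6.4 and 2.28 normalized reads and the P28 dM1/2 libraries at 35.4, 26.6 and 22.9. All 6 anagen dM1/2 libraries were above all control libraries of every age. Cdkn2a rose by 2.55 ± 0.47 at P28 (log2 scale, SE, higher in 3 of 3, limma adjusted p = 0.00659), and by 2.26 ± 0.48 without the library labelled P28 control 3 (limma adjusted p = 0.00779). At P24 it was higher by 1.68 ± 0.49 in 3 of 3 libraries (limma adjusted p = 0.0407), a call lost without any 1 of the 6 libraries (limma adjusted p from 0.0528 to 0.125).

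A gene needed a mean of at least 10 normalized reads to be tested, which Cdkn2a reached in anagen only through the dM1/2 libraries. In comparisons that set these libraries against others it is therefore left out of the counts of called members, or named where a count holds it. With no filter on low values limma called it at P24 (adjusted p = 0.0472) and at P28 (0.00792). In telogen its libraries held between 1 and 4 reads, and it was not tested across genes. Exact two-sided permutation tests of its values gave p = 0.4 at P20 and p = 0.5 at P60, where 3 libraries against 3 cannot give less than 0.1. Mean levels of Cdkn2a from high to low were 28.3 ± 6.43 in P28 dM1/2, 21.1 ± 7.48 in P24 dM1/2, 6.5 ± 3.57 in P60 dM1/2, 6.45 ± 3.25 in P20 control, 5.82 ± 2.09 in P24 control, 4.43 ± 1.96 in P60 control, 4.2 ± 2.08 in P28 control and 4.08 ± 1.66 in P20 dM1/2 (normalized reads, SD, n = 3), with a step free of overlap between P24 dM1/2 and P60 dM1/2.

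Cdkn2b (ENSMUSG00000073802, chromosome 4, 89306299 to 89311039, minus strand) encodes p15, an Ink4 inhibitor, and lies 11646 bases from Cdkn2a. At P28 it was at 93.1, 72.4 and 50.8 normalized reads in controls and at 90, 75.4 and 81.1 in dM1/2, which overlap. The plot of fold changes shows no call for it at any age, with log2 fold changes of 0.22 ± 0.28 at P24 and 0.22 ± 0.27 at P28 (SE, limma adjusted p = 0.619 and 0.56). Without the library labelled P28 control 3 the P28 value was -0.0023 ± 0.24 (limma adjusted p = 0.995). Cdkn2a and its neighbour Cdkn2b thus lay on different sides of the threshold at P28, though the difference between them was not tested. Mean levels of Cdkn2b from high to low were 82.2 ± 7.34 in P28 dM1/2, 72.1 ± 21.1 in P28 control, 61.6 ± 29.1 in P60 dM1/2, 52 ± 15.8 in P24 dM1/2, 49 ± 20 in P60 control, 46.6 ± 17.3 in P20 control, 43.3 ± 2.51 in P24 control and 40.1 ± 13.2 in P20 dM1/2 (normalized reads, SD, n = 3), and all neighbours in this order overlapped.

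The P28 control means in these orders hold all 3 libraries, also the library labelled P28 control 3. Over the 2 others they were 636 ± 53.1 for Cdkn1a, 1418 ± 69.7 for Cdkn1b, 1077 ± 25.5 for Cdkn1c, 5.16 ± 1.76 for Cdkn2a, 82.7 ± 14.6 for Cdkn2b, 189.6 ± 13.5 for Cdkn2c and 306 ± 19.6 for Cdkn2d (normalized reads, SD, n = 2).

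The members that differed between genotypes were called in anagen. With Cdkn2a set aside, 2 of the other 6 members, Cdkn2c and Cdkn2d, were called at P24, against 26.6% of all 14028 genes. Both were higher in dM1/2, against 14.8% of genes, and a count this close to the share of all genes does not set the members apart. At P28, 4 of the 6, these together with Cdkn1a and Cdkn1b, were called, against 35.5% of 14126 genes, and all 4 were higher, against 20%. With the library labelled P28 control 3 left out, these 4 members were again called higher at P28, against 40.9% of genes called and 21.8% called higher. The median log2 fold change was 0.55 over the 6 members and -0.013 over all genes at P24, and 0.95 and 0.004 at P28.

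In telogen no member was called. At P20 limma called 0 of the 6 members tested, against 0.433% of all genes, edgeR and DESeq2 also called 0 members, against 0.563% and 6.42% of genes, and 1 member, Cdkn1b, had an unadjusted p under 0.05, against 19.8%. At P60 limma called 0 of 6, against 0% of 14042 genes, with 0 members and 525 genes at an unadjusted p under 0.05. For P60 edgeR called 0% of genes and DESeq2 0.228%, with 0 members among them. For Cdkn1a the 95% interval of the log2 difference ran from -0.58 to 0.21 at P20 and from -1.60 to 0.40 at P60. In data simulated from the P28 libraries, 3 against 3, limma found few of the smaller changes put in. Telogen libraries were not simulated, so how many such changes limma would find there is not known. A member that was not called may still differ. At P20 the 10 DP markers came to 34888, 29718 and 33577 normalized reads in controls and 53891, 39504 and 48914 in dM1/2, without overlap. Of these 1 was called higher and 0 lower, against 0.354% and 0.0795% of all genes. P60 dM1/2 replicate 1 stood apart in its markers. Those of other dermal fibroblasts came to 171863, 77435 and 78609 normalized reads in the P60 dM1/2 libraries and those of endothelial cells to 6059, 2281 and 1196. The part of these markers in the results at P20 and P60 was not tested.

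The effect of the genotype in anagen was tested against that in telogen over 24 libraries. The difference was called for 4 of the 6 members that passed the filter in every group, against 30.2% of all 14243 genes, and in all 4 the anagen effect was the more positive, against 16.1% of genes. For Cdkn1a the anagen effect exceeded the telogen effect by 1.96 ± 0.47 (log2 scale, SE, limma adjusted p = 0.00365) and for Cdkn1b by 0.48 ± 0.14 (limma adjusted p = 0.0124). For Cdkn2c and Cdkn2d it exceeded it by 1.298 ± 0.25 and 0.9963 ± 0.20 (limma adjusted p = 6.29e-04 and 9.56e-04). In a fit without the library labelled P28 control 3 these values were 1.61, 0.41, 1.24 and 0.98 (limma adjusted p = 0.00244, 0.022, 0.00121 and 0.00171). Cdkn2a averaged 10.1 normalized reads over the 24 libraries and passed the filter only through anagen dM1/2. Its value of 2.16 ± 0.55 (limma adjusted p = 0.00539, 0.00619 with no filter, 0.0111 without the library labelled P28 control 3) rests on telogen libraries of 1 to 4 reads, and 18 of 24 fits with a library left out could test it. Cdkn1c (-0.28 ± 0.33) and Cdkn2b (0.17 ± 0.39) were not called (limma adjusted p = 0.568 and 0.786; 0.328 and 0.93 without the library labelled P28 control 3). Hdac1 itself was called between genotypes at P24 but its stage difference was not (-0.81 ± 0.37, limma adjusted p = 0.109), and its part in these results was not tested. Of the 10 DP markers, 1 had a more positive anagen effect and 4 a more negative one, against 16.1% and 14.1% of all genes. These counts were 0 and 2 for muscle and dermal sheath markers, 1 and 1 for other dermal fibroblasts and 1 and 0 for keratinocytes. The part of these cells was not tested either.

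Between P24 and P28 no member passed the limma test on the libraries of these ages in either genotype. In controls limma called 0 of 6 members, against 1.46% of all genes, with 2 at an unadjusted p under 0.05, against 18.6% of genes. There edgeR called 0 members, against 1.02% of genes, and DESeq2 1, Cdkn2c, against 8.81%. In dM1/2 limma called 0 of 7, against 2.67%, with 3 at an unadjusted p under 0.05, against 16.8%. Here edgeR called 0 members, against 2.51%, and DESeq2 1, Cdkn1a, against 6.45%. Cdkn2c was lower at P28 than at P24 in 3 of 3 control libraries (-0.79 ± 0.22 on the log2 scale, limma adjusted p = 0.136, and -0.66 without the library labelled P28 control 3, limma adjusted p = 0.18), and the single limma fit over 24 libraries called it (adjusted p = 0.0493). Cdkn1a was higher at P28 in 3 of 3 dM1/2 libraries (0.81 ± 0.23, limma adjusted p = 0.117), and was called without P24 dM1/2 replicate 3 (limma adjusted p = 0.0421). The 10 DP markers in dM1/2 came to 175454, 200138 and 157871 normalized reads at P24 and 144155, 125916 and 136485 at P28, without overlap. Of these markers 0 were called higher and 2 lower, against 1.69% and 0.983% of all genes, and their part was not tested. The change from P24 to P28 itself did not pass the test of a difference between genotypes for any of the 6 members counted with limma, edgeR or DESeq2, against 0.707%, 0.728% and 3.86% of all genes, and 2 members had an unadjusted p under 0.05, against 11.9%. Its largest value was 1.77 ± 0.69 for Cdkn1a (log2 scale, SE, limma adjusted p = 0.32). When the library labelled P28 control 3 was left out it was 1.07 (limma adjusted p = 0.237), and the change of Cdkn1a from P24 to P28 in controls moved from -0.96 to -0.26.

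Between P20 and P60 limma called 0 of 6 members in controls, against 12.6% of all genes, edgeR and DESeq2 called 0, against 13.6% and 17.5%, and 1 member had an unadjusted p under 0.05, against 30%. That member, Cdkn2c, was lower at P60 in 3 of 3 libraries (-0.62 ± 0.23 on the log2 scale, limma adjusted p = 0.103) and was called without P20 control replicate 1 (limma adjusted p = 0.0296). The summed DP markers in controls fell as well, from 34888, 29718 and 33577 normalized reads at P20 to 17246, 23118 and 26159 at P60. Of these markers 0 were called higher and 4 lower, against 6.12% and 6.45% of all genes, and their part was not tested. In dM1/2 1 of 6 members was called, against 6.32% of all genes. This was Cdkn2d, at 428, 332 and 424 normalized reads at P20 and 212, 209 and 221 at P60, without overlap. It fell in 3 of 3 libraries (-0.87 ± 0.17 on the log2 scale, limma adjusted p = 0.0297), but the call was lost without P20 dM1/2 replicate 1 (limma adjusted p = 0.126), 2 (0.0771) or 3 (0.146) or P60 dM1/2 replicate 2 (0.0863). It held without P60 dM1/2 replicate 1 (limma adjusted p = 0.0169). The 10 DP markers fell with it, from 53891, 39504 and 48914 normalized reads in P20 dM1/2 to 14329.5, 17528 and 26765 in P60 dM1/2, without overlap, and 4 of them were called lower, against 2.35% of all genes. Their part in the fall of Cdkn2d was not tested. In the same comparison Cdkn1a was called without P60 dM1/2 replicate 3 (limma adjusted p = 0.0284) and Cdkn1c without P60 dM1/2 replicate 1 (limma adjusted p = 0.0166).

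Promoter sequences are shown for Cdkn1a, Cdkn2a and Cdkn2c, which rose at P28 and each have a pair of starts in the RefSeq promoter table of GRCm38.p6, while the count of each gene adds up its transcripts. The table held 9 windows for 6 of 7 members, each with 250 bases before and 50 after a start, and Cdkn1c is named only. Capitals mark the GC box GGGCGG on either strand and the p53 consensus decamer, and each line reads 5′ to 3′ along the strand of the gene.
Cdkn1a (chr17:29090729-29091028, plus strand): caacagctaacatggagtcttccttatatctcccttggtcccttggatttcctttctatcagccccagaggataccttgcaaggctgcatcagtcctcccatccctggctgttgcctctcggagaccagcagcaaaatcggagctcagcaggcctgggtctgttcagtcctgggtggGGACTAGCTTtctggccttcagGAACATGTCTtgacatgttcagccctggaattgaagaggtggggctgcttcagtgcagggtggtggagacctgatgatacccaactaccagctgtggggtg
Cdkn1a (chr17:29093519-29093818, plus strand): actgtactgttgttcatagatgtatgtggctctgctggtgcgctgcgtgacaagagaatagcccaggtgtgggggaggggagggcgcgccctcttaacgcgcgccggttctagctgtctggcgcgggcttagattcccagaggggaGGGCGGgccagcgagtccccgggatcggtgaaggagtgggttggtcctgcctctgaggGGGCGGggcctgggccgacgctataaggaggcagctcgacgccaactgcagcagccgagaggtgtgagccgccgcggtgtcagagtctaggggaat
Cdkn2a (chr4:89294570-89294869, minus strand): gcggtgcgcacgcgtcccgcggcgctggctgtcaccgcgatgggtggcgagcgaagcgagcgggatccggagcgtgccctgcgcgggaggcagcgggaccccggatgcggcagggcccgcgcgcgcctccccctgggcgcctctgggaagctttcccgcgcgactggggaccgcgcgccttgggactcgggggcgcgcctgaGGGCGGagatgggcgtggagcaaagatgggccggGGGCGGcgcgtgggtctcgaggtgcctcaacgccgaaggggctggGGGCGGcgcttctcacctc
Cdkn2a (chr4:89282143-89282442, minus strand): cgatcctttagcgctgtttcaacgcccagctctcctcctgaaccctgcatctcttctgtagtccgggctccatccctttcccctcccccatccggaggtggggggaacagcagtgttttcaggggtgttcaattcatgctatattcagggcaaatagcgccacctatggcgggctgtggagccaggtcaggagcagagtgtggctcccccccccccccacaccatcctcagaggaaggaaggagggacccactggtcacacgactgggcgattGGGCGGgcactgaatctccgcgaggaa
Cdkn2c (chr4:109666707-109667006, minus strand): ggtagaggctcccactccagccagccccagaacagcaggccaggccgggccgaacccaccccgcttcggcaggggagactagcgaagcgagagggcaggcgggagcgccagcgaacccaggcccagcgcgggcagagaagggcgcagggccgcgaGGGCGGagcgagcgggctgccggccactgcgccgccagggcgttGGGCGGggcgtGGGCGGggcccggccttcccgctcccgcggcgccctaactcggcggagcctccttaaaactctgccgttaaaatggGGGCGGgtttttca
Cdkn2c (chr4:109665323-109665622, minus strand): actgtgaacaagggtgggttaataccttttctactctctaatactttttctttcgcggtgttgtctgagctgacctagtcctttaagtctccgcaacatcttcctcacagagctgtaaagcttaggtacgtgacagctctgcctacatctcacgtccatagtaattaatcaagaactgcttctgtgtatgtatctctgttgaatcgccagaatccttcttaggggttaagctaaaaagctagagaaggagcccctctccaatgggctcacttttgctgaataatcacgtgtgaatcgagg

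A GC box was found in 7 of the 9 windows of the members and in 35.7% of all 32851 windows of this length. The upstream window of Cdkn1a held 0 GC boxes and 2 matches to the p53 decamer, and its downstream window held 2 GC boxes and 0 such matches. At least 1 match to the decamer was found in 2 of the 9 windows, the other being that of Cdkn2d, where it overlaps a GC box, and in 8.36% of all windows. The window before the Arf exon of Cdkn2a held 3 GC boxes at a GC content of 77%, and that before the Ink4a exon 1 at 60.3%. The upstream window of Cdkn2c held 4 GC boxes and the downstream window 0. CCAAT was found in 4 of the 9 windows and in 37.4% of all, and the E2F motif TTTNNCGC in 2, both of Cdkn2a, and in 5.17% of all. Both strands were searched, and a CCAAT match overlaps the GC box in the Ink4a window. These matches describe the letters of the windows and were not tested for binding.

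Most cyclins and kinases that the inhibitors bind were higher in anagen dM1/2 cells as well. Of 10 such genes, 7 were higher and 0 lower at P24, and 7 were higher and 0 lower at P28, with median log2 fold changes of 1.44 and 1.7. Over all genes 14.8% were called higher and 11.8% lower at P24, and 20% and 15.6% at P28. This list and those of pocket proteins, regulators and p53 targets were chosen with earlier results of these data known. Their counts beside the shares of all genes are therefore a description and no test. Ccnd1, a D cyclin, was at 423 ± 201 normalized reads in P28 controls and at 5216 ± 655 in P28 dM1/2 (SD, n = 3; log2 fold change 3.72 ± 0.33, limma adjusted p = 5.25e-04). Cdk1, the kinase of mitotic entry, was at 33.7 ± 17.9 and 629 ± 40.6 (4.33 ± 0.39, limma adjusted p = 6.12e-04). Ccne1, a partner of Cdk2, was at 44.8 ± 16.8 and 416 ± 29.8 (3.25 ± 0.28, limma adjusted p = 4.69e-04). Of the kinases that Ink4 proteins bind, Cdk6 rose at P24 (2.54 ± 0.16, limma adjusted p = 3.78e-04) but was not called at P28 (1.79 ± 0.80, limma adjusted p = 0.126). Cdk4 was called at neither age (0.45 ± 0.15 at P28, limma adjusted p = 0.0571). Without the library labelled P28 control 3, 7 of the 10 were higher and 0 lower at P28, against 21.8% and 19.1% of genes. Its Cdk6, at 52.7 normalized reads, was the lowest of the P28 controls, and without it Cdk6 was 0.88 ± 0.43 (limma adjusted p = 0.136). The same fit gave 3.40 ± 0.24 for Ccnd1 (limma adjusted p = 8.70e-05), 4.39 ± 0.42 for Cdk1 (2.70e-04), 3.20 ± 0.30 for Ccne1 (2.48e-04) and 0.46 ± 0.17 for Cdk4 (0.0668).

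Of 11 pocket proteins and E2F factors, 6 were higher and 0 lower at P24, and 6 were higher and 0 lower at P28, also without the library labelled P28 control 3 (6 and 0), beside the shares of all genes given for the cyclins. Rb1 was at 527 ± 13.7 normalized reads in P28 controls and at 902 ± 19.4 in P28 dM1/2 (SD, n = 3; log2 fold change 0.77 ± 0.10, limma adjusted p = 0.00192). E2f8, a repressive E2F factor, was at 19.9 ± 9.62 and 165 ± 24.6 (3.12 ± 0.42, limma adjusted p = 0.002). E2f1, an activating E2F factor, rose at P24 (1.42 ± 0.19, limma adjusted p = 0.00296) and was not called at P28 (1.63 ± 0.66, limma adjusted p = 0.0989). In the fit without the library labelled P28 control 3, whose E2f1 was at 50.4 normalized reads, E2f1 was 0.845 ± 0.31 (limma adjusted p = 0.0627), Rb1 0.78 ± 0.13 (0.00269) and E2f8 2.66 ± 0.25 (2.64e-04).

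**Figure D4:**
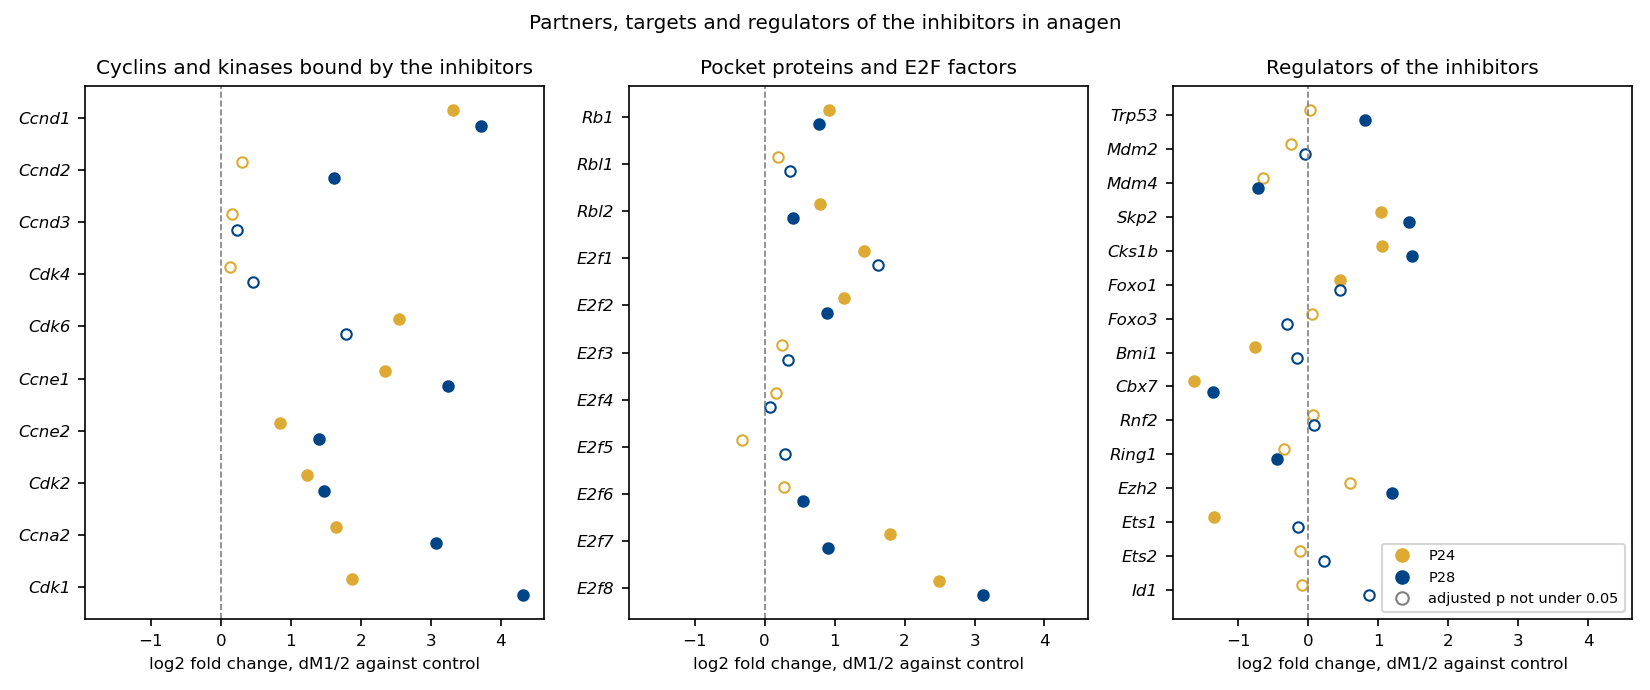
log2 fold change between dM1/2 and control at P24 and P28 for the cyclins and kinases that the inhibitors bind, the pocket proteins and E2F factors, and the regulators of the inhibitors. Filled points have a limma adjusted p under 0.05, and in the left and middle panels all of them lie above 0.

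In the plot of partners and regulators, the regulators of the inhibitors have called genes on both sides of 0. Of 15 tested, 3 were higher and 3 lower at P24, against 14.8% and 11.8% of all genes, and 4 were higher and 3 lower at P28, against 20% and 15.6%. These counts lie near the shares of all genes and do not set the list apart. In the fit without the library labelled P28 control 3, 4 were higher and 2 lower at P28. Skp2 and Cks1b, which together mark p27 protein for degradation, rose at P28 by 1.44 ± 0.20 and 1.48 ± 0.19 (log2 scale, SE, limma adjusted p = 0.00244 and 0.00162). Cbx7, a Polycomb protein known to repress Cdkn2a, was at 168, 199 and 147 normalized reads in P28 controls and at 77.2, 66.9 and 55 in P28 dM1/2. It was lower at P24 (-1.64 ± 0.23, limma adjusted p = 0.00308) and at P28 (-1.36 ± 0.22, limma adjusted p = 0.00393). Bmi1, another Polycomb protein known to repress Cdkn2a, was lower at P24 (-0.76 ± 0.13, limma adjusted p = 0.00689) and not called at P28 (-0.16 ± 0.16, limma adjusted p = 0.496). Ezh2, a Polycomb methyltransferase, rose at P28 (1.20 ± 0.16, limma adjusted p = 0.00203). Trp53, which encodes p53, also rose at P28 (0.81 ± 0.12, limma adjusted p = 0.00286). That fit gave P28 values of 1.35 ± 0.22 for Skp2 (limma adjusted p = 0.00265), 1.33 ± 0.17 for Cks1b (9.57e-04), -1.46 ± 0.24 for Cbx7 (0.0028), -0.033 ± 0.16 for Bmi1 (0.883), 1.09 ± 0.16 for Ezh2 (0.00171) and 0.77 ± 0.14 for Trp53 (0.00381).

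Of 16 p53 target genes beside Cdkn1a, 7 were higher and 0 lower at P24, against 14.8% and 11.8% of all genes, and 11 were higher and 0 lower at P28, against 20% and 15.6%, with a median log2 fold change of 1.15 at P28. Gtse1, a regulator of p53 in G2 phase, had the largest rise past the threshold at P28, from 19.8 ± 9.49 to 309 ± 49.5 normalized reads (SD, n = 3; log2 fold change 4.00 ± 0.37, limma adjusted p = 6.58e-04). Bbc3, which promotes apoptosis, was at 157 ± 14.1 and 453 ± 38.2 (1.52 ± 0.15, limma adjusted p = 6.91e-04), and Zmat3, an RNA-binding protein, at 1305 ± 202 and 3155 ± 262 (1.28 ± 0.15, limma adjusted p = 0.00122). With the library labelled P28 control 3 left out, they were 3.63 ± 0.27 (limma adjusted p = 1.04e-04), 1.45 ± 0.16 (4.79e-04) and 1.39 ± 0.15 (4.00e-04), and 12 targets were higher and 1, Perp, was lower. Eda2r and Pmaip1, picked after their values were seen, had larger values than Bbc3 at P28 that missed the threshold, 3.10 ± 1.03 (limma adjusted p = 0.0538) and 1.76 ± 0.75 (limma adjusted p = 0.112). In the fit without that library Eda2r was called at 1.77 ± 0.17 (limma adjusted p = 2.68e-04), and Pmaip1 was 0.85 ± 0.32 (0.0655). The list of p53 targets, too, was chosen with earlier results of these data known.

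Markers of cells that the sort could hold were summed in each library beside the P24 results. The 10 DP markers, led by Vcan, came to 286447, 293205 and 367015 normalized reads in controls and 175454, 200138 and 157871 in dM1/2, without overlap, and 1 was called higher and 4 lower in dM1/2, against 14.8% and 11.8% of all genes. The 6 muscle and dermal sheath markers, led by Acta2, came to 10903, 9128 and 4078 and 4931, 3328 and 5230.3, with 2 lower, and the 10 keratinocyte markers, led by Msx2, to 785, 1311 and 565 and 1521, 1219.8 and 1466, with 1 higher and 2 lower. Msx2 alone was at 560.6, 608 and 388.2 in controls and at 1315.7, 1000.5 and 1200.2 in dM1/2. The median log2 fold change of the 8 keratinocyte markers tested was -0.37. Krt14 was at 0 in P24 control replicate 3. The 6 endothelial markers came to 1020.2, 569 and 378 and 802, 439.9 and 453, and the 6 immune cell markers to 745, 165 and 75.4 and 86.5, 92.5 and 91, with 1 and 1 lower. Those of other dermal fibroblasts, led by Pdgfra, came to 40608, 24506 and 20254 and 24017, 20367 and 22679.8, and the 6 melanocyte markers, led by Mitf, to 323, 307 and 255 and 333, 307 and 247, and limma called no gene of these 2 lists. Only the sums of the DP markers were free of overlap. Whether these cells had a part in the P24 results for the members was not tested.

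The same markers were summed in each library beside the P28 results. The 10 keratinocyte markers came to 909, 463 and 808 normalized reads in P28 controls and 1122, 1388 and 1156 in P28 dM1/2, with Msx2, which DP cells also express, the most abundant in each. The median log2 fold change of the 7 tested was -0.34, and -1.05 without the library labelled P28 control 3. Krt14, which defines basal keratinocytes, was at 19.1, 19.9 and 2.66 in P28 controls and 1.71, 8.57 and 12 in P28 dM1/2, and Krt17 was at 0 in the library labelled P28 control 3 and in P28 dM1/2 replicate 1. The 6 muscle and dermal sheath markers came to 9534, 11128 and 6332 in P28 controls and 2716, 4253 and 6367 in P28 dM1/2, mostly led by Acta2. The 6 markers of other dermal fibroblasts came to 50684, 70902 and 21296 and 21457, 25211 and 24126, mostly led by Pdgfra. In these 3 lists, 1 and 0, 0 and 2, and 1 and 1 genes were called higher and lower at P28. When the library labelled P28 control 3 was left out they were 2 and 0, 0 and 4, and 1 and 5. The part of these cells in the results for the members was not tested.

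The 6 endothelial markers came to 1552, 1361 and 366 normalized reads in P28 controls and 510.0, 482 and 560.4 in P28 dM1/2. The 6 melanocyte markers, led by Mitf, came to 645, 883 and 299 and 403, 375 and 478, and the 6 immune cell markers, led by Lyz2, to 217, 173 and 134 and 165, 40.3 and 650.0. With all libraries limma called no gene of these 3 lists. When the library labelled P28 control 3 was left out, 1 endothelial and 1 melanocyte marker were called lower, Tek (-2.11 ± 0.19 on the log2 scale, SE, limma adjusted p = 2.29e-04) and Mitf (-0.86 ± 0.22, limma adjusted p = 0.016), and again no immune cell marker. The 10 DP markers came to 237059, 133361 and 386990.3 in P28 controls and 144155, 125916 and 136485 in P28 dM1/2, so that controls varied far more than dM1/2 libraries. Of the DP markers, 3 were called higher and 1 lower at P28, against 20% and 15.6% of all genes. Without the library labelled P28 control 3 they were 4 and 1, against 21.8% and 19.1%. In that fit Sox2, Sox18, Prom1 and Trps1 were higher and Corin was lower (-2.97 ± 0.20, limma adjusted p = 8.36e-05). Corin was at 41112, 30326 and 75255 normalized reads in P28 controls and at 4581, 4009 and 5005 in P28 dM1/2. For the members, the part of these differences was not tested either.

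For each member the 3 genes most like it were found by Pearson's r of log2(normalized reads + 1) over the 24 libraries, among 13380 genes. The libraries share 8 groups of age and genotype, so r mostly reflects differences between groups. For Cdkn1a they were Tnfrsf12a (0.973), Wnt10a (0.951) and Ier5 (0.949), and for Cdkn1b Dyrk3 (0.876), Rdh10 (0.876) and Ing2 (0.872). For Cdkn1c they were Mest (0.821), Lig4 (0.794) and Arhgef25 (0.791). Among Ink4 members, Cdkn2c was closest to Knstrn (0.965), Smc2 (0.965) and Ulbp1 (0.964), and Cdkn2d to Ecsit (0.931), H2afz (0.925) and Sub1 (0.921). Cdkn2a was closest to Asphd1 (0.886), Pnma2 (0.874) and Arhgap19 (0.873), and Cdkn2b, with the lowest values of the members, to Smim4 (0.667), Capn9 (0.663) and BC106179 (0.658). Among the members themselves, r over the 24 libraries was highest between Cdkn2c and Cdkn2d (0.82), then Cdkn2a and Cdkn2c (0.8) and Cdkn2a and Cdkn2d (0.72). Cdkn1a ran between -0.39 with Cdkn1c and 0.41 with Cdkn1b. All r values of Cdkn2a carry limits of their own. Cdkn2a averaged 10.1 normalized reads and passed the filter on low values only through anagen dM1/2, where it was high. Its telogen libraries held 1 to 4 reads each. No likeness of Cdkn2a to other genes or members is therefore concluded from its r values.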

How the data were processed

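RNA of sorted DP cells was measured in 24 libraries. The signal values are read counts divided by size factors: the authors sequenced ribosomal RNA-depleted directional libraries, used Trimmomatic for trimming, TopHat2 for alignment to mm10, HTSeq for counting and DESeq2 for normalization. The strand setting of the counting is not given in the sources used. The authors' own fold change and p columns hold their comparisons and were not used. Undoing the scaling made 100.0% of values whole within 0.01 reads, which gave the counts for edgeR and DESeq2. Values were logged as log2(normalized reads + 1) and tested in R 4.3.3 by limma-trend (version 3.58.1) where a gene averaged 10 or more, two-sided, with Benjamini-Hochberg adjustment over all genes and a threshold of 0.05. Called means past it. The limma fit between genotypes was checked on data simulated from the P28 libraries only. There, with 3 libraries against 3, most of the larger changes put in were called and few of the smaller. Alternatives were edgeR 4.0.16, DESeq2 1.42.0, log2-CPM with TMM, a pseudocount of 10, other filters and thresholds, a single fit, a replicate block, and each library left out. The named genes were all members and the 3 genes most like each member. Some genes of the lists of cyclins and kinases, pocket proteins and regulators were named, and do not stand for the rest. Of the p53 targets, the 3 largest rises and falls past the threshold at P28 were named. A few other p53 targets and single markers were named too. Members and lists were chosen with earlier results of these data known.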

Additional observations from a re-analysis of the deposited data

Results flagged for a closer look

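The effect of the genotype differed between anagen and telogen by the limma test of that difference for 4 of the 6 members that passed the filter on low values in every group, against 30.2% of all genes. The anagen effect minus the telogen effect on the log2 scale was 1.956 for Cdkn1a, 0.4764 for Cdkn1b, 1.298 for Cdkn2c and 0.9963 for Cdkn2d. Cdkn2a was also past the threshold, at 2.163, but is not counted, since it passed the filter only through the anagen dM1/2 libraries. Age, depth and, with P60 mice of both sexes, in part sex differ along with stage and cannot be told apart from it.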

How the results depend on the processing

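At adjusted p under 0.01 limma called 0 members at P24, 0 between P20 and P60 in dM1/2 and 1 between stages in controls, and it lost Cdkn1a at P28 (adjusted p = 0.0143) and Cdkn1b in the stage difference (0.0124), since that threshold is stricter. Where the log2 fold change also had to reach 1 in either direction it called 1 at P24, which was Cdkn2a and none of the 6 others, 3 for the stage difference, which were Cdkn2a, Cdkn1a and Cdkn2c, 0 between P20 and P60 in dM1/2 and 1 between stages in controls, and it lost Cdkn1b at P28 and between stages in dM1/2. DESeq2 called 1 member between P24 and P28 in controls and 1 in dM1/2, and a single limma fit over 24 libraries called 1 in controls, Cdkn2c. With the replicate number as a block limma called 0 between P20 and P60 in dM1/2 (Cdkn2d, adjusted p = 0.0577), and Cdkn2a at P24 lost its call (limma adjusted p = 0.0913). Correlations between libraries of equal replicate number ranged from -0.39 to 0.32 and gave no clear sign of a pairing of mice. Between genotypes they were 0.21, 0.06 and 0.12 at P20 and 0.3, 0.03 and 0.15 at P60. With 3 libraries in a group they are too few to show that pairing is absent. The cause of the changes in calls was not tested. With a library left out, counts ranged from 0 to 3 at P24, 0 to 1 between P24 and P28 in dM1/2, 0 to 1 between P20 and P60 in controls and 0 to 2 in dM1/2. Over all genes limma called 60 (P20), 3735 (P24), 5018 (P28), 0 (P60), 4298 (the stage difference), 204 (P24 to P28 in controls), 375 (P24 to P28 in dM1/2), 100 (the genotype difference in that change), 1746 (P20 to P60 in controls), 892 (P20 to P60 in dM1/2), 6420 (stages in controls) and 8869 (stages in dM1/2). Counts given here moved by over 1.5 times. DESeq2 called 889 (P20), 32 (P60), 1231 (P24 to P28 in controls), 905 (P24 to P28 in dM1/2), 546 (the genotype difference in that change) and 2088 (P20 to P60 in dM1/2). The block gave 439 (P20), 2366 (P24), 6 (P60), 27 (P24 to P28 in controls), 0 (the genotype difference in that change) and 923 (P20 to P60 in controls), and the single fit 23 (P20), 19 (P60), 1313 (P24 to P28 in controls), 78 (P24 to P28 in dM1/2) and 2176 (P20 to P60 in dM1/2). With a pseudocount of 10 limma called 1 (P60) and 151 (the genotype difference in that change), and with at least 10 normalized reads in every library 66 (the genotype difference in that change). At adjusted p under 0.01 it called 4 (P20), 1565 (P24), 2638 (P28), 2555 (the stage difference), 3 (P24 to P28 in controls), 67 (P24 to P28 in dM1/2), 4 (the genotype difference in that change), 462 (P20 to P60 in controls), 95 (P20 to P60 in dM1/2) and 3955 (stages in controls). With the fold limit it called 39 (P20), 1779 (P24), 2728 (P28), 1782 (the stage difference), 235 (P24 to P28 in dM1/2), 835 (P20 to P60 in controls), 2607 (stages in controls) and 3947 (stages in dM1/2). With a library left out, calls ranged over 0 to 1530 (P20), 2057 to 4012 (P24), 3043 to 5788 (P28), 0 to 2 (P60), 0 to 67 (P24 to P28 in controls), 57 to 446 (P24 to P28 in dM1/2), 8 to 167 (the genotype difference in that change), 527 to 2796 (P20 to P60 in controls) and 100 to 1772 (P20 to P60 in dM1/2).

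Values that changed sign belonged to members not called in that comparison. In the order edgeR with TMM, edgeR with DESeq2 size factors, DESeq2 and limma on log2-CPM, Cdkn1b at P60 was -0.04577, -0.01721, -0.01709 and -0.02478, and the genotype difference in the change from P24 to P28 for Cdkn2b was -0.1074, -0.07526, -0.07356 and -0.02502 (log2 scale). With a library left out, differences between genotypes ranged as follows: Cdkn2b -0.4767 to 0.06615 at P20, -0.002328 to 0.4279 at P28 and -0.06723 to 0.687 at P60, and Cdkn1b -0.1063 to 0.1699 and Cdkn1c -0.3284 to 0.3217 at P60. The stage difference of Cdkn2b ranged from -0.02479 to 0.3523, and the genotype difference in the change from P24 to P28 from -0.2207 to 0.224 for Cdkn2b and -0.01983 to 0.3999 for Cdkn2d. From P24 to P28, Cdkn1b ranged from -0.09879 to 0.1249 in controls and Cdkn2d from -0.2415 to 0.1782 in dM1/2. From P20 to P60 in controls, Cdkn1b ranged from -0.1151 to 0.1611, Cdkn1c from -0.3401 to 0.004685, Cdkn2b from -0.2367 to 0.4111 and Cdkn2d from -0.2852 to 0.04364, and in dM1/2 Cdkn2c from -0.336 to 0.1324. Depth limits Cdkn2a most, since a telogen library held at most 4 reads of it.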

Other observations

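Lockd, a noncoding RNA gene next to Cdkn1b, was chosen after its values were seen. It was at 11.7, 14.7 and 7.96 normalized reads in P28 controls and at 38, 20.6 and 43 in P28 dM1/2. The libraries did not overlap, with a log2 fold change of 1.45 ± 0.42 (SE, higher in 3 of 3 libraries, limma adjusted p = 0.0353). Without the library labelled P28 control 3 it was 1.23 ± 0.45 and not called (limma adjusted p = 0.0602).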
